A study of Homo sapiens with 4 samples.

Results

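Epithelial to mesenchymal transition (EMT) is the change in which epithelial cells give up their junctions and take on the form of mesenchymal cells. It is driven by a small set of transcription factors, and 8 of their genes are described here in human bronchial epithelial cells exposed to cadmium: SNAI1, SNAI2, SNAI3, ZEB1, ZEB2, TWIST1, TWIST2 and PRRX1. They were chosen by gene name, with earlier results of these data known, and all 8 had a row among the 25411 genes of the tables. SNAI1 is the gene named in the study's title, together with the microRNA miR-30e.

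The cells were BEAS-2B, an established line from human bronchial epithelium. They were grown in Dulbecco's medium for 72 h, with no metal added in the control group and with 5 µM cadmium chloride in the cadmium group. Each group had 2 libraries of total RNA made with a TruSeq kit. Nothing in the labels says that the 2 libraries of a group came from separate cultures, so the p-values rest on a spread that may be technical only. The labels place the controls under "Expt 1" and the cadmium libraries under "Expt 2". If the 2 names stand for separate experiments, the effect of the experiment and that of cadmium cannot be told apart.

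SNAI and ZEB proteins are zinc finger repressors that bind E-boxes, short DNA words such as CACCTG, and silence CDH1 (E-cadherin) and other junction genes with the help of corepressors. TWIST proteins bind E-boxes through a basic helix-loop-helix domain, and PRRX1 is a homeobox factor of mesenchyme. In epithelial cells microRNAs limit several of these transcripts: the miR-200 family acts on ZEB1 and ZEB2, and miR-30 and miR-34 on SNAI1. The ZEB factors in turn repress the miR-200 genes.

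Reads assigned to genes ranged from 8609243 in control replicate 2 to 29937242 in cadmium replicate 1, and 15313 to 17227 genes had at least 1 read. Levels within a gene are given in CPM, read counts relative to the size of the library after TMM scaling, a correction for library composition. A count of 3 reads corresponded to 0.356 CPM in control replicate 2 and to 0.0979 CPM in cadmium replicate 1, and these floors cover counting error only. A gene is said to have risen or fallen where edgeR's quasi-likelihood test gave an adjusted p under 0.05 over the 13663 genes with enough reads. The simple epithelial keratin KRT8 lay between 540 and 649 CPM and KRT18 between 204 and 285 CPM. The basal keratins KRT5 and KRT14 had at most 1 read in any library and TP63, the basal cell regulator, had 0 in all 4. A further basal keratin, KRT17, had 21.2 and 38.5 CPM in control and 118 and 74.2 CPM with cadmium. Its log2 fold change of 1.75 ± 0.43 (SE) did not pass (edgeR adjusted p = 0.0840). Per length of transcript, CDH1 stood at 0.0215 to 0.174 RPKM and the mesenchymal filament gene VIM at 969 to 1112 RPKM, so that the defining epithelial cadherin was close to absent in control and cadmium libraries alike. In bulk RNA, fewer cells of a type and less RNA per cell cannot be told apart.

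The microRNAs named with these factors fall into 4 groups by seed, bases 2 to 8 from the 5′ end, which pair with the target. They are shown because the seed fixes the DNA word to look for in each transcript. The mature sequences are from RefSeq with coordinates of build GRCh38.p14, and capitals mark the seed. The miR-30 members differ outside the seed only, and hsa-miR-30e-5p lies at chr1:40754371-40754392 on the plus strand.
hsa-miR-30e-5p: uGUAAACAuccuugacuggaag
hsa-miR-30c-5p: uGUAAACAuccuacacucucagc
hsa-miR-30a-5p: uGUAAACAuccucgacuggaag
hsa-miR-200b-3p: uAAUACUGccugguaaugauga
hsa-miR-200c-3p: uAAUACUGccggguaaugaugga
hsa-miR-200a-3p: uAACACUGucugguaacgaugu
hsa-miR-141-3p: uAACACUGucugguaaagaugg
hsa-miR-34a-5p: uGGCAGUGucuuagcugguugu

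The 3′ UTRs of 7 of the 8 factors, taken from GENCODE release 29 transcripts, were searched for the words that pair with these seeds: TGTTTAC for miR-30, CAGTATT for miR-200b/c, CAGTGTT for miR-200a/miR-141 and CACTGCC for miR-34. The SNAI1 3′ UTR of 830 bases held 1 miR-30 word, at base 706, and 1 miR-34 word, at base 86, counted from the start of the 3′ UTR. The ZEB1 3′ UTR of 2549 bases held 6 miR-200b/c words, 3 miR-200a/miR-141 words and 1 miR-34 word. ZEB2 held 5 and 4 miR-200 words in 5370 bases, and SNAI3 held 1 miR-34 word in 766 bases. TWIST1, TWIST2 and PRRX1 held none of the 4 words. Among the 12337 tested genes with a 3′ UTR in the annotation, 17.0% held a miR-30 word, 18.1% a miR-200b/c word, 20.0% a miR-200a/miR-141 word and 17.3% a miR-34 word. At least 2 words of a kind were less common, at 4.18% for miR-200b/c and 4.73% for miR-200a/miR-141. The median 3′ UTR of these genes was 1237 bases long, shorter than those of both ZEB genes, and the shares are not matched for length. A match is a description of the sequence, not a sign that the microRNA acts there. The SNAI1 words, and the pair of ZEB1 words nearest the stop codon for each miR-200 seed, are printed with their surroundings, and capitals mark the 7 bases that pair with the seed.
SNAI1, miR-30 word at base 706: ctgggaggaagaTGTTTACatttttaaagg
SNAI1, miR-34 word at base 86: ccacatccttctCACTGCCatggaattccc
ZEB1, miR-200b/c word at base 369: gttttatcttatCAGTATTatcactcttat
ZEB1, miR-200b/c word at base 463: ctaaatccgcttCAGTATTttattatgttt
ZEB1, miR-200a/miR-141 word at base 782: aatcatcagaatCAGTGTTtgtgattgtgt
ZEB1, miR-200a/miR-141 word at base 1533: gatttgatttaaCAGTGTTatgttaacatt

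**Figure D1:**
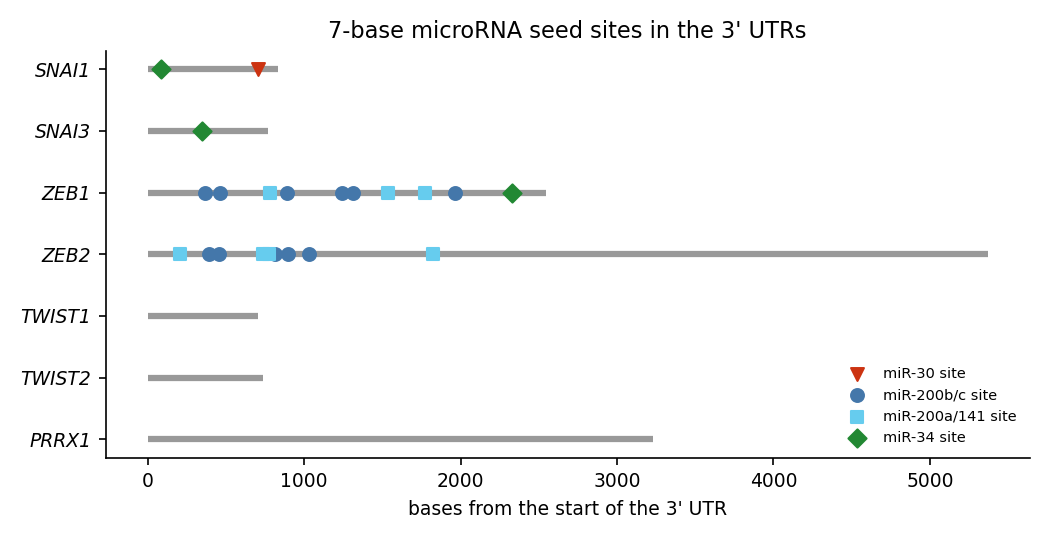
Positions of microRNA seed words in the 3′ UTRs of 7 EMT factors, in bases from the start of each 3′ UTR; each bar is a 3′ UTR drawn to scale and each symbol 1 word. ZEB1 and ZEB2 carry 9 miR-200 words each, SNAI1 carries the miR-30 word, and TWIST1, TWIST2 and PRRX1 carry none of the 4 kinds.

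The deposited counts hold little on these microRNAs themselves. Of 18 microRNA genes and host genes with a row, 14 had 0 reads in all 4 libraries, MIR30E among them. NFYC, a subunit of the NF-Y transcription factor whose gene hosts MIR30E, had 65.0 and 59.1 CPM in the controls and 51.6 and 49.6 CPM with cadmium. Both cadmium libraries lay below both controls, by 0.30 ± 0.10 (SE) on the log2 scale with the cadmium group lower, but the gene did not pass the test (edgeR adjusted p = 0.0744). It passed, at an adjusted p of 0.0306, when control replicate 2 was left out. Levels of mature microRNAs were not analysed here.

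Of the 8 factors, 7 had enough reads to be tested. SNAI1, ZEB1 and SNAI3 rose, and SNAI2, ZEB2, TWIST1 and TWIST2 did not pass. None fell by edgeR's test, by DESeq2 or by limma, and 0 factors were lower at an unadjusted p under 0.05 in edgeR. Over all 13663 genes tested, 8.85% rose and 7.66% fell. Rises made up 53.6% of these calls, and 67.8% when libraries were scaled by size alone, under which the same 3 factors passed. Both cadmium libraries lay above both controls for the 3 factors that rose, a pattern seen in 31.3% of all tested genes, and below both controls for none, against 30.8%. The median log2 fold change of the 7 tested factors was 0.10, beside 0.0019 over all tested genes. The 3 that rose had low levels, and genes at low levels leaned upward in these libraries as a whole. Of the 1958 tested genes with a mean of 1 to 5 CPM over the 4 libraries, 10.9% rose and 1.48% fell, with a median log2 fold change of 0.25. Genes at high levels leaned downward. Of the 2681 with a mean of 100 CPM or more, 6.08% rose and 17.6% fell. AJUBA, CTBP1, HDAC1, LOXL2, YBX1 and CLDN1, described below, lay at that level. The part of the upward lean in the 3 rises was not tested. A scaling that removes trends with level gave log2 fold changes of 1.72 for SNAI1, 1.70 for ZEB1 and 0.82 for SNAI3 (edgeR adjusted p = 0.0266, 0.0168 and 0.121). SNAI3 did not pass under it.

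SNAI1 encodes Snail, the zinc finger repressor from which the family takes its name, and lies at chr20:48599513-48605420 on the plus strand (hg19). It had 51 and 8 reads in control replicates 1 and 2 and 239 and 73 reads in cadmium replicates 1 and 2. In CPM these were 1.96 and 0.950 in the controls and 7.80 and 4.62 with cadmium. The lower cadmium library was well above the higher control, although the libraries within each group were far apart. The mean was 1.45 ± 0.713 CPM (SD, n = 2) in control and 6.21 ± 2.25 CPM (SD, n = 2) with cadmium. SNAI1 thus rose by 1.96 ± 0.37 (SE) on the log2 scale, with an edgeR adjusted p of 0.0141. Without cadmium replicate 1, the library with the most SNAI1, SNAI1 did not pass in a fit that then held 1 cadmium library. The log2 fold change was 1.54. Without control replicate 1 it was 2.74. In the authors' deposited table SNAI1 has a mean RPKM of 0.743 in control and 3.24 with cadmium and an adjusted p of 0.000794. The log ratio in the authors' deposited table, whose base is not stated, is 0.99 for SNAI1. It is smaller than the ratio of the mean RPKM on the log2 scale, as it is for SNAI3 and ZEB1. These log ratios are therefore not comparable in size with edgeR's log2 fold changes.

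SNAI3, the least studied Snail gene, lies at chr16:88744090-88752882 on the minus strand (hg19). SNAI3 was covered by 26 and 9 reads in control and by 69 and 36 after cadmium. This came to 0.998 and 1.07 CPM in control and to 2.25 and 2.28 CPM with cadmium, so that libraries of a group were nearly equal and the groups were apart. The rise was 1.14 ± 0.32 (SE) on the log2 scale, with an edgeR adjusted p of 0.0463. The rise lay close to the threshold and passed in 6 of 13 other analyses. In the other 7 the log2 fold change was 0.82 to 1.18 and the adjusted p 0.0831 to 0.241, DESeq2 (adjusted p = 0.241) among them. The authors' deposited table also leaves SNAI3 short of 0.05, with mean RPKM of 0.526 and 1.18 and a log ratio of 0.44 (adjusted p = 0.210). SNAI3-AS1 runs across SNAI3 on the other strand, at chr16:88729781-88753594. The use of strand in counting is not given in the sources used here, so reads of the 2 genes cannot be told apart with certainty. SNAI3-AS1 had 59 and 12 reads in control and 97 and 46 with cadmium, a log2 fold change of 0.64 ± 0.30 (SE) that did not pass (edgeR adjusted p = 0.182).

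SNAI2 encodes Slug, the Snail protein best known from neural crest and basal epithelial cells. It had 30 and 3 reads in control and 16 and 12 with cadmium, or 1.15 and 0.356 CPM against 0.522 and 0.759 CPM. Control replicate 2 stood at the 3-read floor, and the cadmium libraries lay between the 2 controls. The log2 fold change was -0.53 ± 0.53 (SE), with an edgeR adjusted p of 0.523, and its sign turned to 0.77 without control replicate 1. At this depth no direction can be given for SNAI2.

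ZEB1 encodes a large protein with a zinc finger cluster at each end and a homeodomain between them, and lies at chr10:31610064-31818742 on the plus strand (hg19). Control replicates 1 and 2 held 27 and 15 ZEB1 reads, and cadmium replicates 1 and 2 held 165 and 70. The levels were 1.04 and 1.78 CPM in control and 5.39 and 4.43 CPM with cadmium. Here the spread within a group was small beside the gap between the groups. The mean was 1.41 ± 0.526 CPM (SD, n = 2) in control and 4.91 ± 0.678 CPM (SD, n = 2) with cadmium. On the log2 scale ZEB1 rose by 1.94 ± 0.32 (SE), with an edgeR adjusted p of 0.00980. ZEB1 passed in all 13 other analyses that tested it, with log2 fold changes from 1.42 to 2.25. In the authors' deposited table ZEB1 has mean RPKM of 0.218 and 0.742 and a log ratio of 0.92 (adjusted p = 0.00198).

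ZEB2, the paralog of ZEB1 with the same arrangement of zinc fingers, had the most reads of the 8. Its row spans chr2:145268952-145277958 on the minus strand (hg19) as the files give it. This span is shorter than the spliced GENCODE transcript of 9541 bases, so which part of ZEB2 was counted is not known, and its RPKM and share of the ZEB pair rest on that. ZEB2 had 3012 and 709 reads in control and 2425 and 1479 with cadmium. Its levels were 116 and 84.2 CPM in control and 79.2 and 93.5 CPM with cadmium, so that the controls enclosed 1 of the cadmium libraries. The log2 fold change was -0.22 ± 0.16 (SE) and did not pass (edgeR adjusted p = 0.363). The value depended on the controls: it was -0.43 and passed (adjusted p = 0.0178) without control replicate 2, and 0.033 without control replicate 1.

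The antisense RNA gene ZEB1-AS1 lies just upstream of ZEB1, at chr10:31605457-31608024 on the minus strand (hg19), and the spans of the 2 genes in the files do not overlap. It had 11 and 12 reads in control and 51 and 32 with cadmium, or 0.422 and 1.42 CPM against 1.67 and 2.02 CPM. Both cadmium libraries were above both controls, but the controls were far apart. The log2 fold change was 1.30 ± 0.52 (SE), with an edgeR adjusted p of 0.121. It was 2.09 with an adjusted p of 0.00693 without control replicate 2.

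Starts of ZEB1 and ZEB1-AS1 share promoter windows, from which both transcripts are read outward. The shared window that holds CACCTG words is printed. The other shared window, chr10:31320304-31320603 in build GRCh38.p14, has starts 107 bases apart and held 0 CACCTG words. In the RefSeq promoter table (build GRCh38.p14) the window chr10:31318966-31319265, read on the plus strand, covers 250 bases before and 50 bases after a ZEB1 start at 31319216, and a ZEB1-AS1 start lies 121 bases upstream on the other strand. Capitals mark the E-box word bound by SNAI and ZEB proteins, CACCTG, or CAGGTG on the other strand.
ZEB1 promoter window: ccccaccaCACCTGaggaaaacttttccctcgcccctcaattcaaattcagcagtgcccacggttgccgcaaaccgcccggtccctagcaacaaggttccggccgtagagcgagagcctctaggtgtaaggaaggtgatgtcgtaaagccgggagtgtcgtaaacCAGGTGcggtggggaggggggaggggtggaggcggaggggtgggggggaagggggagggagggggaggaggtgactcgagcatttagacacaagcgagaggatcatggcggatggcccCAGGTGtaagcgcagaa

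The window held 3 such words, at -242, -85 and 33 bases from the ZEB1 start, and no other CANNTG word. Of the 35116 promoter windows of this length in the table, 20.6% held at least 1 CACCTG word on either strand and 0.635% held 3 or more. ZEB1 has 7 windows in the table, so 1 window with 3 words is 1 among several looked at. A metal response element, the word TGCGCNC or TGCACNC bound by the metal-sensing factor MTF1, was in 29.6% of all windows and in none of the 7 ZEB1 windows, nor in those of ZEB2, TWIST2 or PRRX1. The window of SNAI3-AS1, the antisense gene that overlaps SNAI3, held 2. The absence of these letters from a window says nothing about the factor itself. Promoters of SNAI1, SNAI3 and TWIST1 were not analysed here.

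TWIST1 encodes a basic helix-loop-helix protein of mesoderm and lies at chr7:19155091-19157295 on the minus strand (hg19). It had 563 and 163 reads in control and 705 and 333 with cadmium, or 21.6 and 19.4 CPM against 23.0 and 21.1 CPM. The groups overlapped and all 4 libraries lay within a narrow range. The log2 fold change of 0.099 ± 0.13 (SE) did not pass (edgeR adjusted p = 0.639).

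TWIST2, its close paralog, lies at chr2:239756673-239832244 on the plus strand (hg19). It had 89 and 20 reads in control and 82 and 43 with cadmium, or 3.42 and 2.37 CPM against 2.68 and 2.72 CPM. The cadmium libraries fell between the controls, and the log2 fold change of -0.16 ± 0.28 (SE) did not pass (edgeR adjusted p = 0.729). PRRX1, at chr1:170633313-170708541 (hg19), had 0 reads in all 4 libraries. A count of 0 allows a level of up to 0.115 and 0.356 CPM in the 2 controls and up to 0.0979 and 0.190 CPM in the 2 cadmium libraries.

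Levels of different genes were compared in RPKM, the authors' deposited values per length of transcript and per library size. In the controls TWIST1 (11.3 and 10.1 RPKM) and ZEB2 (12.3 and 8.78 RPKM) came highest and overlapped each other. TWIST2 followed with 3.10 and 1.84 RPKM. SNAI1 (1.00 and 0.485 RPKM) and SNAI3 (0.508 and 0.544 RPKM) overlapped, as did SNAI2 (0.476 and 0.147 RPKM) and ZEB1 (0.158 and 0.279 RPKM) at the bottom. With cadmium TWIST1 (12.4 and 11.2 RPKM) and ZEB2 (8.80 and 10.04 RPKM) stayed highest. SNAI1, at 4.09 and 2.396 RPKM, then overlapped TWIST2 (2.397 and 2.541 RPKM). SNAI3 stood at 1.18 RPKM in both libraries, ZEB1 at 0.815 and 0.668 RPKM, and SNAI2 last at 0.222 and 0.319 RPKM. The 2 factors with the largest rises thus stayed below TWIST1 and ZEB2 per length of transcript in every library.

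**Figure D2:**
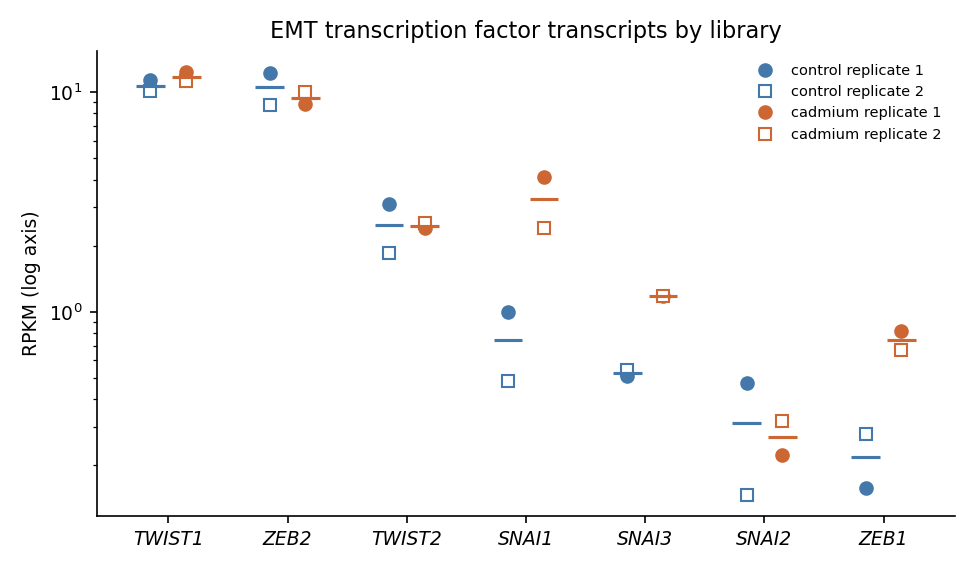
Deposited RPKM (log axis) of the 7 EMT factors with reads in each of the 4 libraries; blue marks control, orange marks cadmium, circles are replicate 1, squares are replicate 2 and bars are group means. SNAI1, SNAI3 and ZEB1 show both cadmium libraries above both controls, while the groups overlap for the other 4 genes; PRRX1, with 0 reads, cannot be drawn on a log axis.

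Within families the balance of transcripts moved with these rises. SNAI1 made up 50.4% and 41.3% of the summed RPKM of the 3 Snail genes in control and 74.5% and 61.6% with cadmium. ZEB1 made up 1.27% and 3.08% of the summed RPKM of the ZEB pair in control and 8.48% and 6.24% with cadmium, so that ZEB2 remained the main ZEB transcript in all 4 libraries. TWIST2 made up 21.5% and 15.4% of the TWIST pair in control and 16.2% and 18.5% with cadmium, with the groups overlapping. These shares are descriptions and were not tested. The transcript length implied by the deposited RPKM differed by library for rows that hold several RefSeq transcripts, by 1.06 times for ZEB1, 1.04 times for ZEB2 and 1.18 times for TWIST2.

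**Figure D3:**
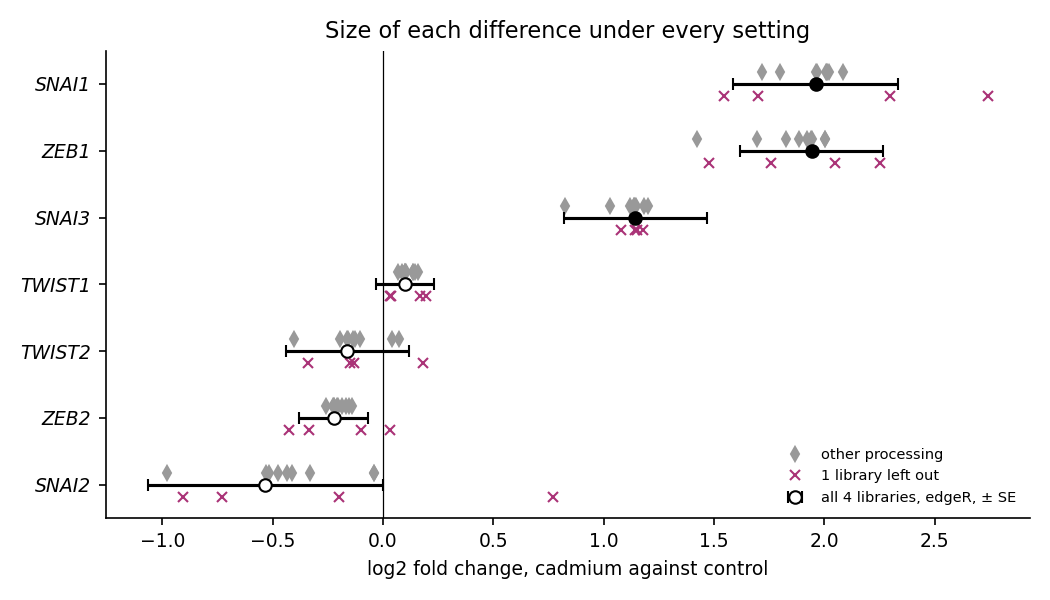
Log2 fold change (cadmium against control) of the 7 tested EMT factors; black circles with bars are the edgeR estimate ± SE from all 4 libraries (filled where the adjusted p is under 0.05), grey diamonds are other ways of processing and crosses are analyses with 1 library left out. SNAI1, ZEB1 and SNAI3 stay above 0 throughout, from 1.54 to 2.74, 1.42 to 2.25 and 0.82 to 1.20, and SNAI2, ZEB2 and TWIST2 have values on both sides of 0.

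The genes whose pattern over the 4 libraries was most like that of SNAI1, among 12747 genes with a mean of at least 1 CPM, were PCDH1, ZNF467 and VNN2. The measure was the root mean square difference in log2(CPM + 0.5) after the mean of the controls was subtracted, and it was 0.0734, 0.118 and 0.158. PCDH1, a protocadherin of airway epithelium, went from 0.921 and 0.237 CPM in control to 4.05 and 2.404 CPM with cadmium. In control replicate 2 PCDH1, and ZNF467 and VNN2 at 0.119 CPM each, were below the 3-read floor of 0.356 CPM. Their likeness to SNAI1 in that library thus rests on very few reads. For ZEB1 the nearest genes were KCNN4 at 0.0359, CDCP1 at 0.0382 and PPM1J at 0.0623. KCNN4, a calcium-activated potassium channel, went from 2.57 and 4.04 CPM to 11.1 and 9.80 CPM. CDCP1, a membrane glycoprotein, went from 21.3 and 34.1 CPM to 84.6 and 73.5 CPM. By this measure the difference between SNAI1 and ZEB1 was 0.530. Among the 12747 genes ZEB1 was gene 123 in order of likeness to SNAI1, and SNAI1 was gene 473 in order of likeness to ZEB1. In control replicate 2 SNAI1 stood below its level in replicate 1 and ZEB1 above. With 4 libraries such an order describes these libraries only.

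No tested gene next to the 3 factors that rose passed edgeR's test. Within 100000 bases of SNAI1 there were 3 genes, and the 2 with enough reads, SPATA2 and RNF114, had log2 fold changes of -0.086 and -0.10 (edgeR adjusted p = 0.742 and 0.470). The only gene in that distance of ZEB1 was ZEB1-AS1. Around SNAI3 there were 10 genes, 6 of them tested, with log2 fold changes from -0.24 to 0.64. At an unadjusted p under 0.05 there were 0 genes near SNAI1, ZEB1-AS1 near ZEB1 and CYBA, which was lower, near SNAI3.

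Among further EMT factors outside the SNAI, ZEB, TWIST and PRRX families, 16 in number, 11 were tested. Of these 0 rose and 1 fell, with a median log2 fold change of 0.01, beside 8.85% and 7.66% of all tested genes. DESeq2 and limma-voom also called 0 higher, and 1 was higher at an unadjusted p under 0.05 in edgeR. The gene that fell was YBX1, a cold shock protein that binds DNA and RNA, which went from 581 and 530 CPM to 423 and 413 CPM (log2 fold change -0.41, edgeR adjusted p = 0.0147), and did not pass without cadmium replicate 1 or without cadmium replicate 2 (adjusted p = 0.0644 and 0.0857), or with level-dependent scaling (log2 fold change -0.30, adjusted p = 0.0503). TCF3, the E-box binding protein E12/E47, stood at 246 and 285 CPM in control and 260 and 268 CPM with cadmium. HMGA2, a chromatin protein that acts upstream of SNAI1 in TGF-beta signalling, stood at 5.22 and 1.19 CPM in control and 3.23 and 4.30 CPM with cadmium, and FOXC2 and LEF1 had 0 reads in all 4 libraries.

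Among 20 genes of the pathways that induce these factors, which include the inhibitor SMAD7, all 20 were tested. Of these 1 rose and 2 fell, with a median of 0.01, while 8.85% rose and 7.66% fell over all tested genes. GLI1, the Hedgehog effector, rose from 0.614 and 0.712 CPM to 1.80 and 1.77 CPM (log2 fold change 1.46, edgeR adjusted p = 0.0330). SMAD7, the inhibitor of TGF-beta receptors, fell from 21.0 and 16.1 CPM to 9.99 and 10.2 CPM (log2 fold change -0.90, edgeR adjusted p = 0.0134). The ligand gene TGFB2 fell from 115 and 88.0 CPM to 55.6 and 70.5 CPM (log2 fold change -0.70, edgeR adjusted p = 0.0276). TGFB1, the ligand used most often to induce EMT in culture, stood at 150 and 121 CPM in control and 143 and 150 CPM with cadmium. GLI1 failed the test without control replicate 1 and without either cadmium library (adjusted p = 0.127, 0.187 and 0.134). It also failed with the replicate block (0.0521), level-dependent scaling (0.0826), DESeq2 (0.193), thinned counts (0.0982) and limma on RPKM (0.0660). SMAD7 and TGFB2 failed it without cadmium replicate 1 (adjusted p = 0.0588 and 0.102), and TGFB2 with limma on RPKM (0.0680).

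Of 19 regulators of the Snail protein all were tested, 1 rose and 2 fell, with a median of 0.00. The shares over all tested genes were 8.85% for rises and 7.66% for falls. LOXL2, a lysyl oxidase that stabilises Snail, fell from 569 and 566 CPM to 416 and 358 CPM (log2 fold change -0.55, edgeR adjusted p = 0.00952). MDM2, a ubiquitin ligase best known for p53, fell from 106 and 88.2 CPM to 68.8 and 68.2 CPM (log2 fold change -0.51, edgeR adjusted p = 0.0183). PAK1, a kinase that phosphorylates Snail, rose from 40.6 and 39.5 CPM to 54.3 and 53.0 CPM (log2 fold change 0.42, edgeR adjusted p = 0.0253). GSK3B, whose product marks Snail for destruction, was at 85.7 and 86.4 CPM in control and 73.0 and 79.3 CPM with cadmium and did not pass (edgeR adjusted p = 0.211). The ubiquitin ligase subunits BTRC and FBXW7 did not pass, with log2 fold changes of 0.22 and 0.00. Without cadmium replicate 1 or 2, MDM2 (adjusted p = 0.0725 and 0.0728) and PAK1 (adjusted p = 0.171 and 0.118) no longer passed, nor did MDM2 with limma on RPKM (0.0583). Protein levels were not analysed here.

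The corepressors through which SNAI and ZEB proteins act were all expressed. Of 19, all tested, 2 rose and 4 fell, with a median of -0.09. Over all tested genes 8.85% rose and 7.66% fell. Of the 2681 with a mean of 100 CPM or more, 6.08% rose and 17.6% fell. AJUBA, CTBP1 and HDAC1 lay at that level, and the part of this downward lean in their falls was not tested. The LIM proteins WTIP and AJUBA, which bridge Snail to silencing enzymes, fell by 0.84 and 0.73 on the log2 scale, from 78.8 and 77.8 CPM to 44.0 and 43.8 CPM for WTIP (edgeR adjusted p = 0.00313) and from 183 and 192 CPM to 105 and 121 CPM for AJUBA (edgeR adjusted p = 0.00493). CTBP1, the corepressor bound by ZEB proteins, fell from 223 and 228 CPM to 155 and 153 CPM (log2 fold change -0.55, edgeR adjusted p = 0.00626). The deacetylase HDAC1 fell by 0.30. LIMD1, the related LIM protein, and the histone methyltransferase EHMT2 rose by 0.38 and 0.42. With each cadmium library left out in turn, 0 corepressors rose and 3 fell, and with the replicate block 1 rose and 3 fell. WTIP, AJUBA and CTBP1 passed with each library left out in turn, and EHMT2 did not without cadmium replicate 1 or 2 (adjusted p = 0.0696 and 0.0866).

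Of 20 epithelial genes that SNAI or ZEB proteins are known to repress, 17 were tested. Among these 7 rose and 1 fell, and the median log2 fold change was 1.10. The shares over all tested genes were 8.85% for rises and 7.66% for falls. TJP3, the tight junction scaffold ZO-3, rose from 1.88 and 2.37 CPM to 14.4 and 9.49 CPM (log2 fold change 2.56, edgeR adjusted p = 0.00313). DSP, the desmosome protein desmoplakin, rose from 2.42 and 1.07 CPM to 6.43 and 5.69 CPM (log2 fold change 1.64, edgeR adjusted p = 0.0150). CDH3, or P-cadherin, rose from 2.23 and 3.44 CPM to 8.88 and 5.57 CPM (log2 fold change 1.46, edgeR adjusted p = 0.0203). The adhesion gene EPCAM rose from 2.03 and 2.37 CPM to 5.94 and 5.06 CPM (log2 fold change 1.36, edgeR adjusted p = 0.0131). The polarity genes INADL and LLGL2 and the claudin CLDN3 rose by 1.13, 0.80 and 1.07. CLDN1 fell from 261 and 204 CPM to 153 and 136 CPM (log2 fold change -0.69, edgeR adjusted p = 0.0123).

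CDH1, the best known target of Snail, had 11 and 1 reads in control and 28 and 15 with cadmium. Its log2 fold change of 1.45 ± 0.53 (SE) did not pass (edgeR adjusted p = 0.0944). With level-dependent scaling it was 0.97, without control replicate 1 it was 2.90 and without control replicate 2 it was 1.13, and CDH1 passed in none of these (adjusted p = 0.261, 0.0630 and 0.116). CLDN7 (log2 fold change 1.10) and the tight junction gene OCLN (0.34) did not pass either. Most genes of the list, 11 of the 17 tested, had a mean under 10 CPM over the 4 libraries, as did the 3 factors that rose. Over all tested genes with a mean under 10 CPM, 4028 in number, 10.7% rose and 1.34% fell, with a median log2 fold change of 0.24. Of the 11 list genes at that level 6 rose and 0 fell, with a median of 1.36, and of the 6 list genes above it 1 rose and 1 fell, with a median of 0.26. The count of rises in the list was 2 without cadmium replicate 1 and 12 without control replicate 2. Of the genes named with their levels, TJP3 passed with each library left out in turn. DSP, CDH3 and EPCAM did not without cadmium replicate 1 (adjusted p = 0.0528, 0.153 and 0.0955), nor CDH3 without control replicate 1 (adjusted p = 0.0694), with thinned counts (0.0859) or with limma on RPKM (0.0606). What the lean of low genes adds to it was not tested.

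Transcription and splicing factors of the epithelial state, which oppose EMT factors, were mostly absent or low. Of 15 genes 6 were tested, 1 rose and 0 fell by edgeR, with a median of 0.61, beside 8.85% and 7.66% of all tested genes. DESeq2 called 0 higher, limma-voom called 3 higher, and both called 0 lower. At an unadjusted p under 0.05 in edgeR, 3 were higher (ELF3, FOXA1 and GRHL1) and 0 lower, and 3 rose without control replicate 2. FOXA1, a pioneer factor of airway and gland epithelium, rose from 1.27 and 1.31 CPM to 3.20 and 3.67 CPM (log2 fold change 1.41, edgeR adjusted p = 0.0180). It did not pass by DESeq2 (adjusted p = 0.0571), nor without control replicate 1, cadmium replicate 1 or cadmium replicate 2 (edgeR adjusted p = 0.0533, 0.0687 and 0.0963). ELF3, an epithelial ETS factor, went from 15.8 and 33.0 CPM to 48.9 and 46.7 CPM and did not pass (edgeR adjusted p = 0.142). GRHL2 and OVOL2, which repress ZEB1, had 0 reads in all 4 libraries, and the splicing factor gene ESRP1 had reads in cadmium replicate 1 only, 4 in number.

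Of 20 mesenchymal genes known to rise in EMT 17 were tested, 1 rose and 1 fell, with a median of -0.10. Among all tested genes 8.85% rose and 7.66% fell. ITGA5, the fibronectin receptor subunit, rose from 301 and 311 CPM to 405 and 368 CPM (log2 fold change 0.34, edgeR adjusted p = 0.0276). POSTN, the matrix protein periostin, fell from 2.42 and 1.54 CPM to 0.490 and 0.380 CPM (log2 fold change -2.21, edgeR adjusted p = 0.0132). VIM had a log2 fold change of -0.03 and CDH2, or N-cadherin, of 0.02. At an unadjusted p under 0.05 in edgeR 1 gene of the list was higher and 5 were lower. DESeq2 called 4 lower, as did edgeR with the replicate block and with no filter on low counts. The count of falls was 6 without control replicate 2, and the count of rises was 0 without either cadmium library. POSTN was at an adjusted p of 0.0521, 0.0511 and 0.0504 without control replicate 1, cadmium replicate 1 and cadmium replicate 2, and ITGA5 at 0.224 and 0.0558 without cadmium replicates 1 and 2.

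**Figure D4:**
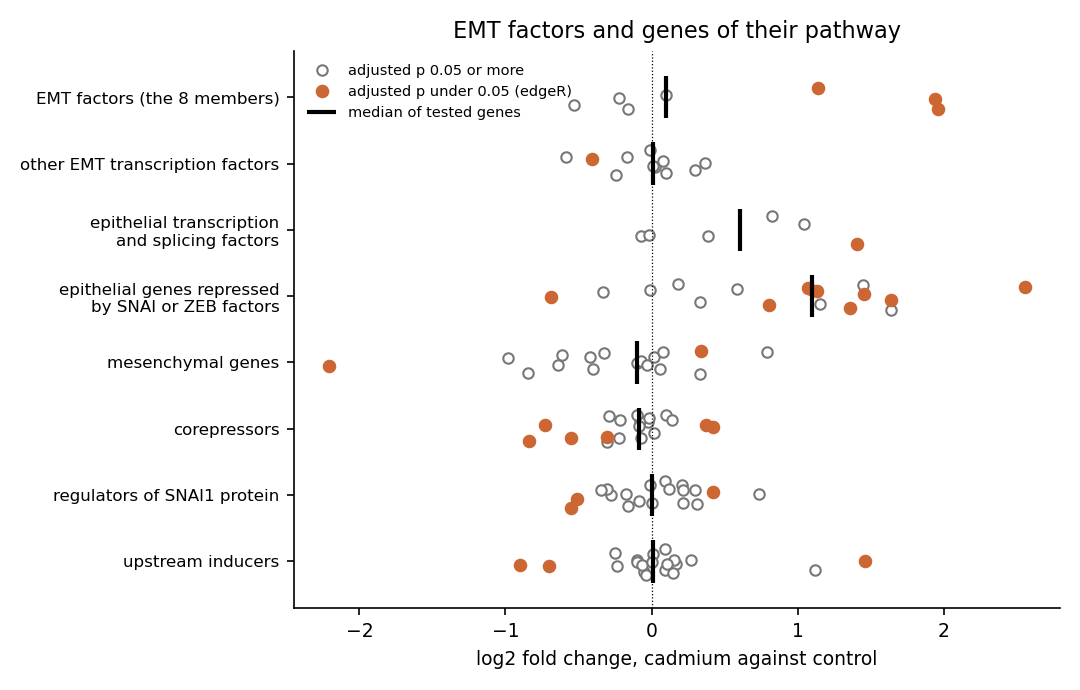
Log2 fold change (cadmium against control) of the tested genes of the EMT factors and of 7 lists of genes around their pathway; each circle is a gene, filled where the edgeR adjusted p is under 0.05, and bars are list medians. The list of epithelial genes has a median of 1.10, the epithelial factors 0.61, and the other lists have medians between -0.10 and 0.10.

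Markers of other cell types were read beside these results, and beside the 8.85% of all tested genes that rose and the 7.66% that fell. Of 10 leukocyte markers 3 were tested and 2 rose, CD68 by 0.59 and ITGAM by 1.69 on the log2 scale (edgeR adjusted p = 0.00857 and 0.0490), and the list summed to 63.4 and 64.2 CPM in control and 95.9 and 89.6 CPM with cadmium. CD68, a lysosomal gene also read in other cells, made up most of that sum, with 52.6 to 83.4 CPM. The defining genes CD3E and LYZ had 0 reads, and PTPRC at most 2. CD14, also tested, had 6.80 and 11.4 CPM in control and 11.2 and 7.40 CPM with cadmium. It did not pass (edgeR adjusted p = 0.826). Of 8 endothelial markers 1 was tested, TIE1, which rose by 1.68 (edgeR adjusted p = 0.0160), and the sum went from 1.61 and 1.19 CPM to 4.05 and 3.67 CPM, with PECAM1 at 0 reads throughout. TIE1 did not pass without cadmium replicate 1 (adjusted p = 0.110), and ITGAM did not without control replicate 1 or either cadmium library (adjusted p = 0.124, 0.281 and 0.162), with the replicate block (0.0781), level-dependent scaling (0.129) or limma on RPKM (0.108). Of 9 fibroblast markers 4 were tested and 0 passed by edgeR, while COL1A1 was lower at an unadjusted p under 0.05 and DESeq2 called 1 lower. They summed to 5088 and 4258 CPM in control and 4037 and 3816 CPM with cadmium, mostly COL1A1, while DCN and COL3A1 had 0 reads. THY1 lay between 536 and 587 CPM and PDGFRB between 162 and 205 CPM. Both cadmium libraries of PDGFRB were above both controls, but it did not pass (edgeR adjusted p = 0.225). Markers of ciliated and secretory airway cells, 7 with a row and 2 tested, gave 0 calls by edgeR, DESeq2 and limma-voom, 0 at an unadjusted p under 0.05, and summed to 3.76 to 5.52 CPM. Bronchial epithelial markers, 9 in number and 5 tested, had 1 rise, EPCAM, and summed to 767 to 982 CPM. That sum was mostly KRT8 and KRT18, while KRT19 had at most 7 reads in any library. The part of these markers in the results above was not tested.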

How the data were processed

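RNA from 2 control and 2 cadmium libraries of BEAS-2B cells was analysed. Per the submitters' processing notes, STAR 2.4, DESeq2 and DESeq were used with build hg19. Which tool did what, how reads were assigned and whether strand was used is not given in the sources used here. For each library the authors deposited raw counts of reads per RefSeq gene and RPKM, per the file headers. Their deposited table of the comparison gives mean RPKM, a log ratio, taken as log2 although its base is not stated, and raw and adjusted p-values.

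The counts were analysed with R 4.3.3 and edgeR 4.0.16: filterByExpr, TMM, a model with the group alone and the robust quasi-likelihood test. P-values were adjusted by Benjamini-Hochberg over the 13663 genes tested (threshold 0.05), and SEs come from the F statistic. Levels are CPM with TMM factors. Both libraries of each group differed beyond sampling noise (chi-square per gene 11.3 between controls and 7.35 between cadmium libraries). Alternatives were a replicate block, other scalings, other filters, DESeq2 1.42.0, limma-voom (limma 3.58.1), counts thinned to equal depth, limma on log2(RPKM + 0.1) and leaving out each library, where the lone library of a group is assumed to vary like the other group. The 8 factors and the lists were chosen with earlier results of these data known. Named genes were all 8 factors, CDH1, VIM and, from each list, up to 4 passing genes with the largest change or the 2 with the smallest p. Any others were chosen after their values were seen, to complete a list or to show a gene of known role.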

Additional observations from a re-analysis of the deposited data

How the results depend on the processing

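Of the 8 factors, 3 rose and 0 fell in the analysis reported. The number that rose was 0 with a filter of 5 CPM in 2 libraries, since only 2 of the 8, ZEB2 and TWIST1, then had enough reads to be tested. With 1 library left out it was 1 to 3, the lowest without cadmium replicate 1, and the number that fell was 0 to 1, with ZEB2 called lower without control replicate 2. The log2 fold change of SNAI1 was 1.54 to 2.74 with 1 library left out, and did not pass without cadmium replicate 1 (edgeR adjusted p = 0.0611). Over all genes 1209 rose and 1046 fell. With limma on log2(RPKM + 0.1) these counts were 719 and 554, and with scaling by library size alone 1441 and 683, so that rises made up 67.8% of calls in place of 53.6%. With 1 library left out, 395 to 1933 genes rose and 250 to 1597 fell. Signs turned for TWIST2 with thinned counts (0.071) and with limma on RPKM (0.042). With 1 library left out the log2 fold change was -0.90 to 0.77 for SNAI2, -0.34 to 0.18 for TWIST2 and -0.43 to 0.033 for ZEB2, positive without control replicate 1 in each. The cause was not tested. With a replicate block 2 factors and 1073 genes rose and 811 fell, SNAI1 had a log2 fold change of 2.08 and SNAI3 did not pass (adjusted p = 0.0831). The labels do not say that equal numbers share a culture, and deviations of same-numbered libraries had a correlation of -0.186, so the numbers were not taken as pairs. Depth limits SNAI2 and CDH1, which had 3 and 1 reads in control replicate 2.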
